A study of Drosophila melanogaster with 19 samples.

Results

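The dosage compensation complex of Drosophila melanogaster was followed through 7 genes, chosen by name: the long non-coding RNA genes roX1 and roX2 (listed in RefSeq as lncRNA:roX1 and lncRNA:roX2) and the protein-coding genes msl-1, msl-2, msl-3, mle and mof. They stood among the 17807 annotated genes of 7 chromosomes. A peak was assigned to a gene when it touched the gene's span in release 6 of the fly assembly (dm6) extended by 1 kb to each side, called its window. The 7 windows took 57 of the 82060 deposited peaks, over 14 separate sites. The genes carried very unequal signal. An internal site of roX1 was a peak in all 17 enzyme-treated libraries and in neither control, while msl-1 had no peak in any library.

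In male flies the complex raises transcription from the X chromosome. MSL1 and MSL2 form its core, MSL3 reads a histone mark of active genes, MOF is a histone acetyltransferase, MLE is an RNA helicase that remodels the roX RNAs, and the roX RNAs are needed for assembly on the X. The complex is known to load first at GA-rich entry sites bound by the zinc finger protein CLAMP, and both roX genes hold such a site. Whether any peak below lies on one was not tested, since no base sequence was used here. The S2 line is of male type and is a standard system for this complex.

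AdMTase-seq was done on nuclei of S2-DRSC cells, a line from Drosophila embryos with hemocyte character that the labels spell S2-DSRC. Nuclei were treated for 20 min at 37 °C with an adenine methyltransferase, which marks the DNA it can reach with m6A, and per the labels an m6A antibody (Millipore Sigma ABE572) was used for every library but the input. The treated groups were Hia5 (0.6, 2, 6, 20, 60 and 200 U), EcoGII and Btr192IV (each with 0.6, 2 and 6 U), EcoGI (0.6 and 2 U) and Hin1523 (2 U). As controls there were an m6A immunoprecipitation from untreated cells (untreated m6A-IP) and a DNA input from untreated cells with no antibody. There were 2 libraries each for the 2 U and 6 U groups of Hia5 and 1 for every other group, and nothing in the labels says that libraries came from separate cultures, so a p-value here speaks of variation among libraries that may be purely technical. A unit of one enzyme need not equal a unit of another. By their library numbers the libraries fall into 2 sets, called runs here, which is an inference from these numbers alone. Both controls and 5 Hia5 libraries (replicate 1 of 2 U and 6 U, and 20, 60 and 200 U) were in run 1, and all other treated libraries in run 2.

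The lists differed in length. Treated lists held 772 (Hia5 60 U) to 13395 peaks (EcoGII 6 U), the untreated list 1974 and the input list 32. Heights within a library were whole multiples of a step (within 0.05 of a step), and the inverse of that step, a relative depth, was 7.28 to 25.5 in treated libraries, against 11.3 for the untreated m6A-IP and 0.673 for the input. With so short a list, the empty input windows below say little. Of 10 hemocyte markers, used to check the label of the line, 8 had a peak in some treated library, where 51.6% of all genes had one, and 3 had one in the untreated m6A-IP (5.13% of all genes). Their windows ran from 5612 bp (NimC1) to 66341 bp (ush), where the median of all genes was 3695 bp, and a longer window can hold more peaks. The transcription factor gene srp had a peak in 16 of 17 treated libraries and in 1 control, and zfh1 in 16 and in no control. Hml, a clotting protein gene of hemocytes, had one in 1 treated library, and eater and NimC1 had none. These counts are of peaks in DNA and not of RNA.

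All but one of the genes had a peak somewhere, but mostly in few libraries. A peak was present in at least 1 treated library at 6 of the 7 genes, where 51.6% of all genes had one. The number of treated libraries was 17 for roX1, 9 for mle, 5 for msl-3, 3 for roX2, 3 for msl-2, 1 for mof and 0 for msl-1. The median over the 7 genes was 3 libraries, against 1 over all genes. Windows of the 7 genes had a median length of 5895 bp and those of all genes 3695 bp, and a longer window can hold more peaks.

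**Figure D1:**
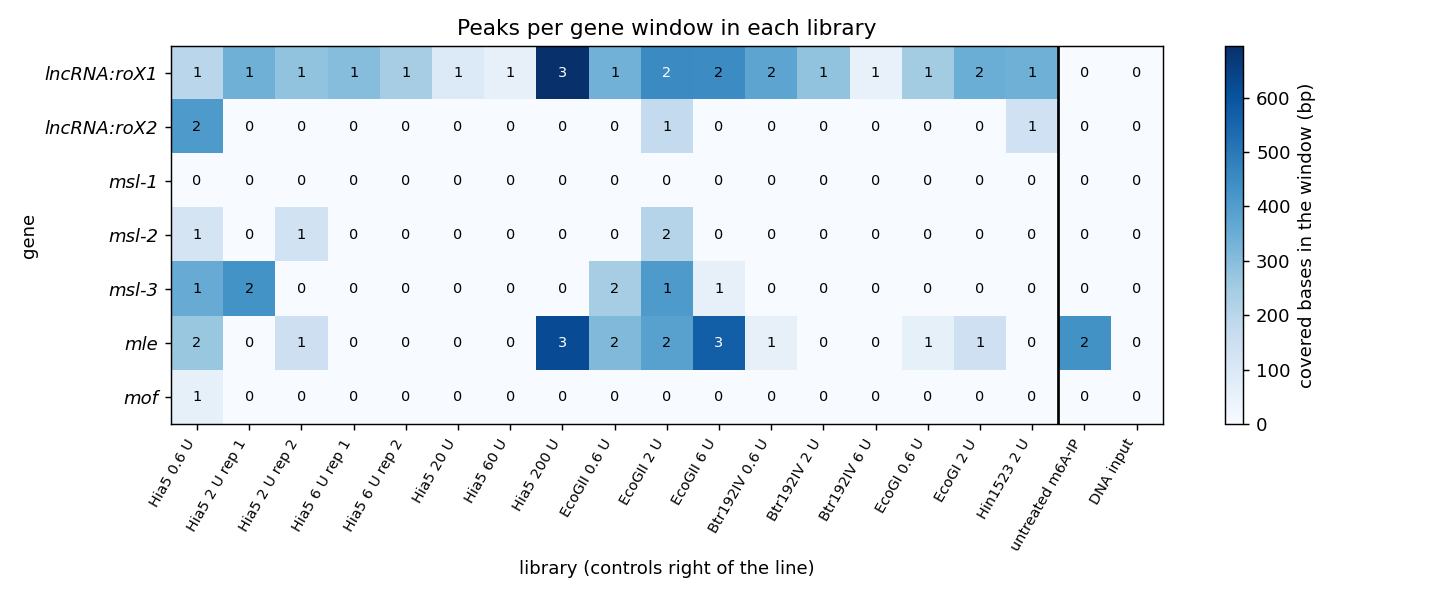
Peaks in the window of each dosage compensation gene (rows) in each of 19 libraries (columns, treated libraries left of the line, controls right of it). Numbers are peaks and colour is the number of bases under them; roX1 has 1 to 3 peaks in every treated library and 0 in both controls, and msl-1 has 0 throughout.

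The roX1 gene spans X from 3857230 to 3862697. Its internal site ran from 3861101 to 3861500, within the span, 3871 bp right of its left end and 1197 bp left of its right end. No other annotated gene overlapped it. The peaks of all 17 treated libraries shared a core of 49 bp, from 3861274 to 3861322. Neither the untreated m6A-IP nor the input had a peak anywhere in the roX1 window.

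Few places in the genome had a peak in every treated list and in no control. Only a site in the shortest treated list, the 772 peaks of Hia5 60 U, could be such a place. Peaks of all 19 libraries merged into 20707 sites. Of these, 180 had a peak in all 17 treated libraries, and 58 (0.28%) had one in all 17 and in no control. The roX1 site was 1 of 2 such sites among 2948 on the X, the other lying at Unc-76 (X from 2083647 to 2083940). Its median height percentile over the treated lists, 82.2, placed it at position 39 of the 58 in order of that measure. Of the 7 genes roX1 was also the only one with a peak in all 8 Hia5 libraries, as 1.25% of all genes had. At the level of genes, 175 (0.983% of all genes) had a peak in all 17 treated libraries, and 71 (0.399%) had one in all 17 and in neither control. Of 1995 lncRNA genes, 22 (1.1%) had a peak in all 17.

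**Figure D2:**
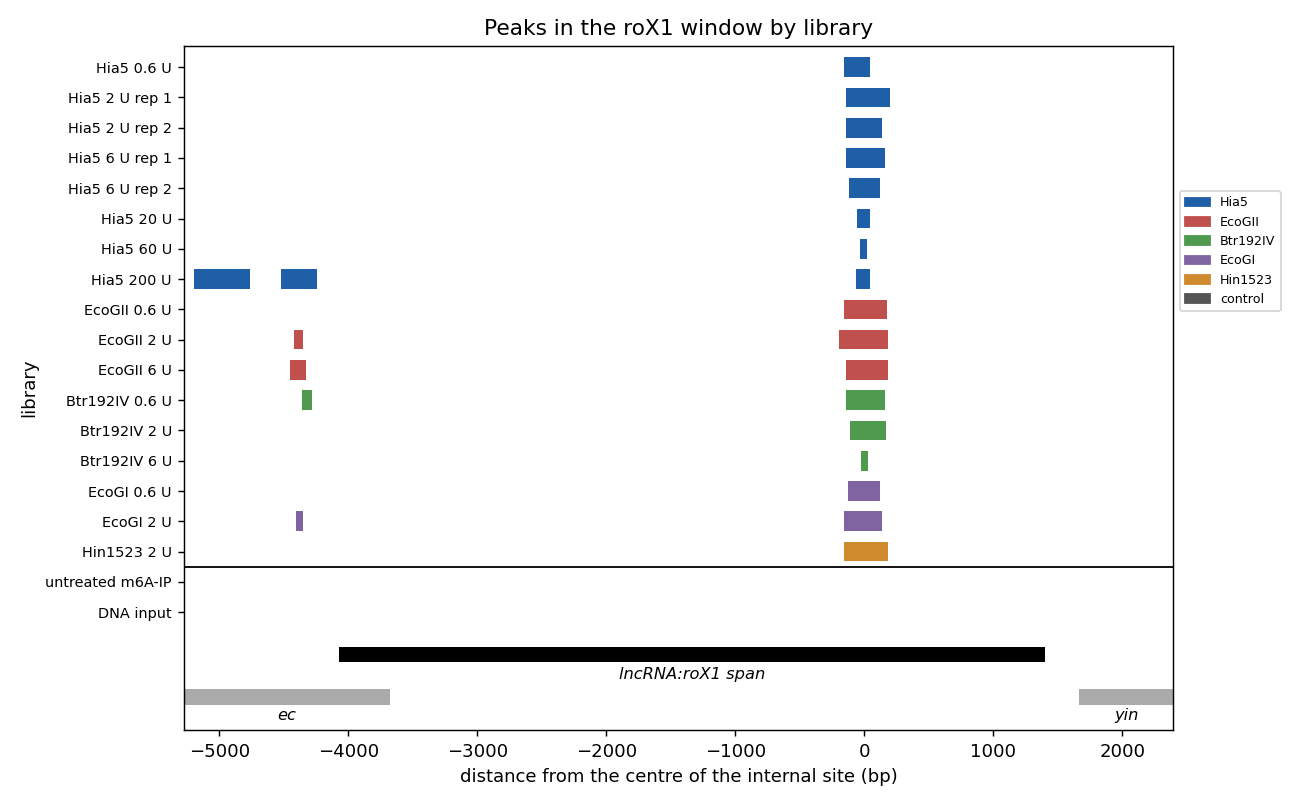
Peaks in the roX1 window, 1 row per library, as distance in bp from the centre of the internal site; the black bar is the roX1 span and grey bars are neighbouring genes. Each of the 17 treated libraries has a peak at 0, the controls have none, and a second group of peaks lies left of the span inside ec in 5 libraries.

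Height ranks at the roX1 site, counted from the highest peak of each list, were as follows. With Hia5 the 0.6 U library ranked it 962 of 8080, the 2 U replicates 569 of 5680 and 603 of 6161, and the 6 U replicates 351 of 2856 and 540 of 2132. The 20, 60 and 200 U libraries ranked it 756 of 2494, 347 of 772 and 1834 of 4054. As percentiles these gave 74.4 to 90.1 at 0.6 to 6 U, and 69.4, 54.5 and 54.5 at 20, 60 and 200 U. The site thus stood in the upper part of the 5 lists at 0.6 to 6 U and near the middle of those at 60 and 200 U, which differ in length.

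With EcoGII the ranks for 0.6, 2 and 6 U were 1185 of 6772, 1589 of 7969 and 1007 of 13395, which are percentiles of 82.4, 79.9 and 92.4. With Btr192IV it was 338 of 3692, 642 of 3098 and 763 of 1425 at 0.6, 2 and 6 U, percentiles of 90.8, 79.0 and 45.4. EcoGI gave 509 of 2916 at 0.6 U and 1616 of 3012 at 2 U, percentiles of 82.2 and 45.5, and Hin1523 gave 748 of 5546 at 2 U, a percentile of 86.4. Of the 17 peaks, 11 were at or above percentile 75 of their list and 15 at or above percentile 50. The 2 below percentile 50 were Btr192IV at 6 U and EcoGI at 2 U.

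The width of the peak at the roX1 site ran over 54 to 380 bp, with a median of 281 bp. For Hia5 the 0.6 U library gave 200 bp, the 2 U replicates 340 and 280 bp, the 6 U replicates 300 and 242 bp, and the 20, 60 and 200 U libraries 94, 57 and 102 bp. The replicates averaged 310 ± 42.4 bp at 2 U and 271 ± 41.0 bp at 6 U (SD, n = 2 each), ranges that overlap. The 3 highest doses lay below all 5 lower-dose libraries. EcoGII peaks were 335, 380 and 320 bp wide at 0.6, 2 and 6 U, Btr192IV peaks 300, 281 and 54 bp, EcoGI peaks 248 and 293 bp at 0.6 and 2 U, and the Hin1523 peak 340 bp. In 12 of the 17 libraries the site was wider than the median peak of its list. The 5 narrower ones were Hia5 at 0.6, 20, 60 and 200 U and Btr192IV at 6 U.

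**Figure D3:**
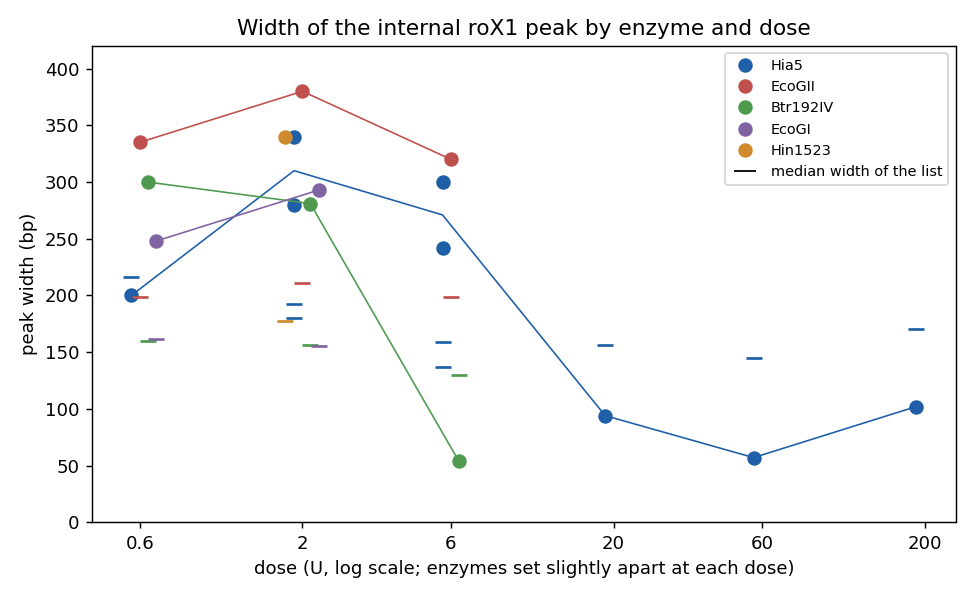
Width in bp of the peak at the internal roX1 site against dose in U (log axis), 1 point per library, lines joining the mean at each dose of an enzyme, and short bars giving the median peak width of the same list. Hia5 widths are 200 to 340 bp at 0.6 to 6 U and 57 to 102 bp at 20 to 200 U, below the list medians there.

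Left of roX1, peaks between 3856779 and 3857060 lay 170 bp or more outside its span and inside ec (echinus, an eye development gene), whose span runs into that of roX1. They were present in 5 treated libraries, namely Hia5 200 U, EcoGII 2 U and 6 U, Btr192IV 0.6 U and EcoGI 2 U, at percentiles of 21.6 to 69.1. Hia5 200 U had a further peak from 3856105 to 3856540 that reached into the window by its right part.

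roX2 had little signal of its own. The gene spans X from 11579065 to 11580432. A site from 11580475 to 11580800, 43 bp right of the span and reaching the left end of nod (a kinesin-like protein gene), was a peak with Hia5 at 0.6 U (rank 5411 of 8080), EcoGII at 2 U (4642 of 7969) and Hin1523 at 2 U (4113 of 5546). Across the left end of roX2, Hia5 at 0.6 U had an 82 bp peak from 11579001 to 11579082, at rank 7437 of 8080. No peak lay wholly within roX2 in any of the 19 libraries, where roX1 had its internal site in 17 treated ones. All 4 roX2 peaks were in the lower part of their lists, at percentiles of 7.44 to 41.1, and none was in a control.

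The sites of msl-2 and msl-3 lay at an end of the gene or outside it, and that of mof outside it. For msl-2 (2L from 3462218 to 3466112), whose protein is the limiting ubiquitin ligase of the complex, a site from 3466059 to 3466235 covered the right end of the gene and the left end of ND-PDSW, a gene of respiratory complex I. It was a peak with Hia5 at 0.6 U (rank 3689 of 8080) and in 2 U replicate 2 (3024 of 6161), and with EcoGII at 2 U (4560 of 7969), but not in Hia5 2 U replicate 1. EcoGII at 2 U also had a 74 bp peak 185 bp left of the gene.

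msl-3 (3L from 7123213 to 7125533) encodes the chromodomain subunit. A merged site from 7125141 to 7125708 reached across its right end and held 7 peaks of 5 libraries, some of them wholly inside the gene. They were Hia5 at 0.6 U with 355 bp, Hia5 2 U replicate 1 with 178 and 252 bp, and EcoGII at 0.6 U with 171 and 72 bp, at 2 U with 408 bp and at 6 U with 57 bp. These were low peaks, at percentiles of 8.26 to 36.4, and Hia5 2 U replicate 2 had none. At both genes the 2 replicates of Hia5 2 U thus disagreed, msl-2 having a peak in replicate 2 alone and msl-3 in replicate 1 alone.

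mof (X from 5873840 to 5876853) had a single peak in the series, 59 bp wide and 469 bp left of the gene, partly in GAA1, with Hia5 at 0.6 U (rank 6023 of 8080). msl-1 (2L from 18683720 to 18688800), the scaffold gene, was 1 of 8571 genes (48.1%) with no peak in any library. Peaks of the neighbour CG31751, present in 5 treated libraries, lay outside the msl-1 window.

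mle (2R from 5974857 to 5980778) was the gene of the list some of whose peaks overlapped peaks of untreated cells. The untreated m6A-IP had 2 peaks in its window, where 5.13% of all genes had any. One lay from 5975261 to 5975540, inside the left part of the gene, at rank 207 of 1974, and the other from 5981257 to 5981409, right of the gene, at rank 656 of 1974. The first matched a site from 5975241 to 5975615 that was a peak in 7 treated libraries, namely all 3 EcoGII, both EcoGI, Btr192IV at 0.6 U and Hia5 at 200 U. The second matched a site from 5981221 to 5981410 that was a peak in all 3 EcoGII libraries and in no library of another enzyme.

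At the left mle site the EcoGII ranks for 0.6, 2 and 6 U were 4256 of 6772, 4307 of 7969 and 1509 of 13395. EcoGI gave 1945 of 2916 at 0.6 U and 1362 of 3012 at 2 U, Btr192IV 3003 of 3692 at 0.6 U, and Hia5 1611 of 4054 at 200 U. None of the 7 Hia5 libraries at 0.6 to 60 U had a peak at either of these sites. At the right site EcoGII ranked 3360 of 6772, 3994 of 7969 and 5900 of 13395 at 0.6, 2 and 6 U. The part of the signal of untreated cells in these treated peaks was not tested.

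The other mle sites had no counterpart in the controls. One inside the right part of the gene, from 5980232 to 5980446, was a peak in Hia5 2 U replicate 2 (rank 2424 of 6161), Hia5 200 U (1806 of 4054) and EcoGII 6 U (3885 of 13395). A pair left of the gene, in BubR1 or across its right end, was seen with Hia5, both at 0.6 U and the outer one, from 5974091 to 5974281, also at 200 U. Without peaks that overlapped a control peak, mle kept a peak in 4 treated libraries in place of 9. The counts of roX1, roX2, msl-2, msl-3 and mof were the same without such peaks.

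**Figure D4:**
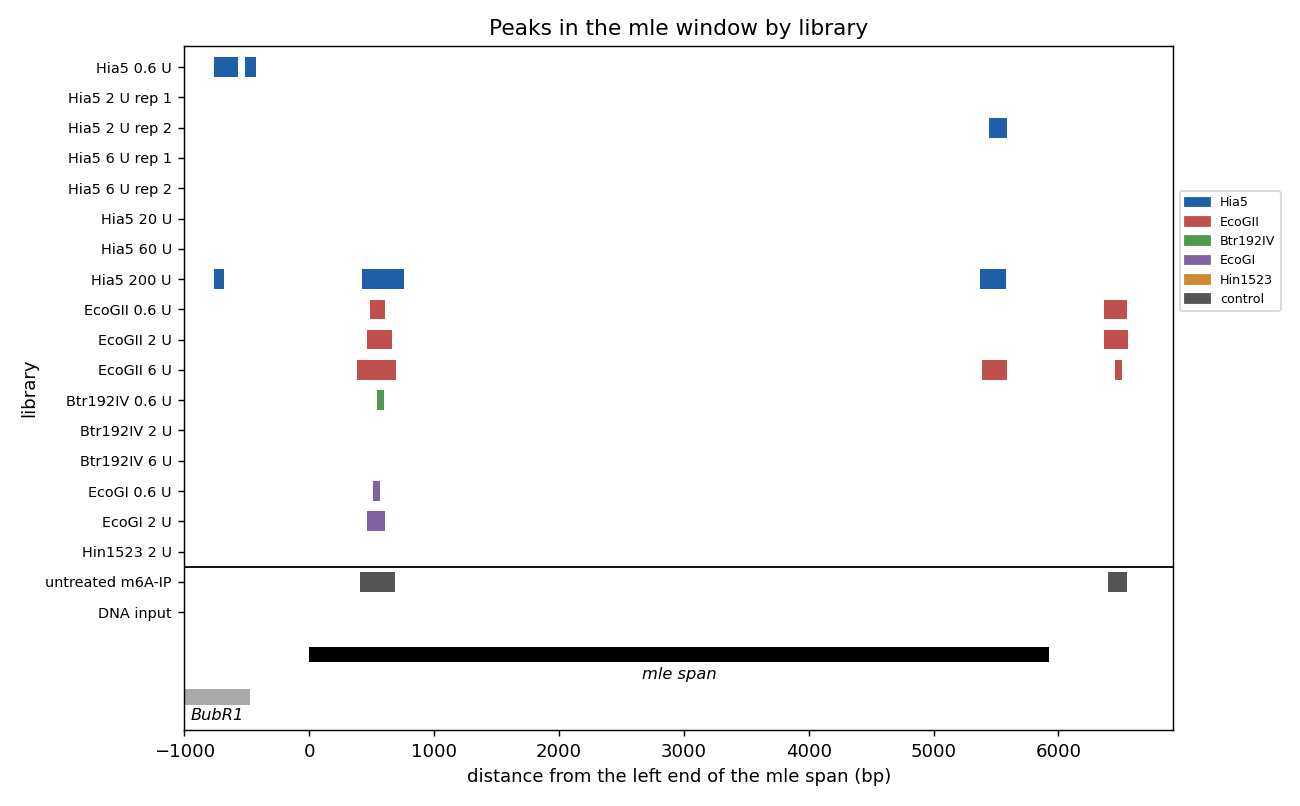
Peaks in the mle window, 1 row per library, as distance in bp from the left end of the mle span, with the span in black and BubR1 in grey. Both untreated m6A-IP peaks, in the lower rows, line up with EcoGII peaks, and 5 of the 8 Hia5 rows are empty.

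Per library, the number of the 7 genes with a peak was set against the share of all genes with one. The 0.6 U library of Hia5 had 6 (all genes 35.0%), the 2 U replicates 2 and 3 (23.8% and 24.9%) and each 6 U replicate 1 (10.7% and 9.31%). The 20, 60 and 200 U libraries had 1, 1 and 2 (8.29%, 2.95% and 9.99%). The 1 gene at 6, 20 and 60 U was roX1 each time, and at 200 U mle joined it. Hia5 at 0.6 U was the only library with a peak at mof, and it missed msl-1 alone.

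EcoGII had peaks at 3, 5 and 3 of the genes with 0.6, 2 and 6 U (all genes 29.4%, 32.6% and 34.6%). The 3 genes at 0.6 and 6 U were roX1, msl-3 and mle, and roX2 and msl-2 joined them at 2 U. None of the 7 had a peak in all 3 EcoGII libraries and in no Hia5 library at 0.6 to 6 U, as 0.292% of all genes had. Btr192IV had 2, 1 and 1 at 0.6, 2 and 6 U (16.6%, 13.7% and 6.4%), EcoGI 2 at 0.6 U and 2 at 2 U (13.6% and 13.2%), and Hin1523 2 (24.8%). The untreated m6A-IP had 1, mle (5.13%), and the input 0 (0.0899%). Over all pairs of gene and treated library, 38 of 119 had a peak (31.9%, all genes 18.2%). Without roX1 this was 21 of 102 (20.6%), near the share of all genes.

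**Figure D5:**
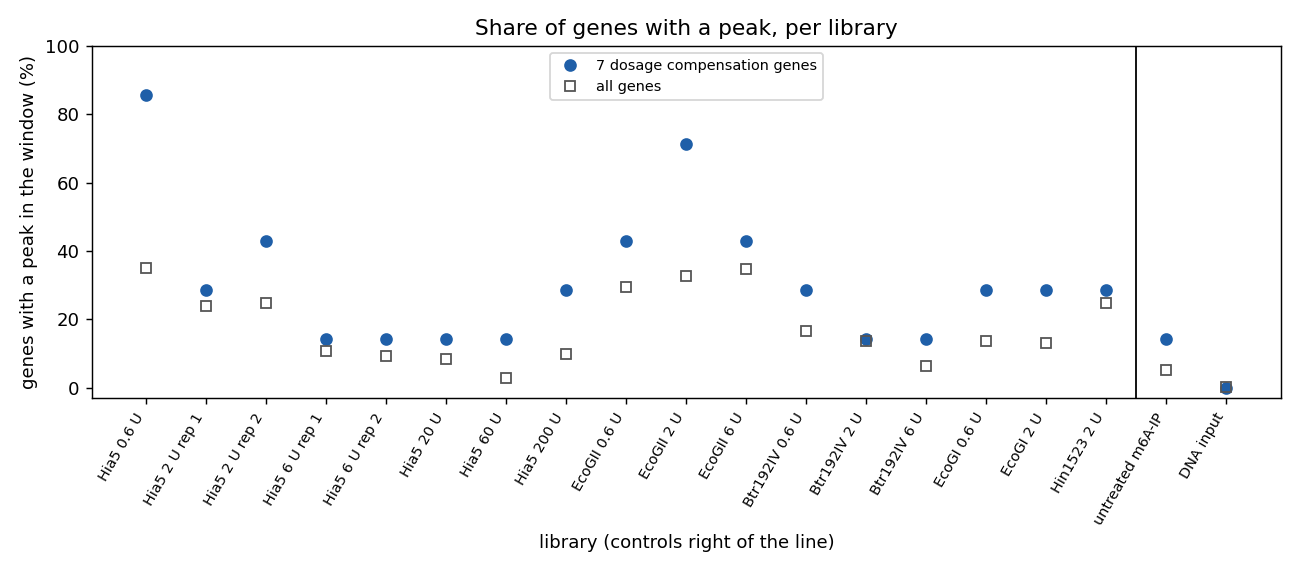
Share in percent of the 7 dosage compensation genes (filled circles) and of all genes (open squares) with a peak in the window, per library, with the controls right of the line. At Hia5 0.6 U the shares are 85.7% and 35.0%, and in each 6 U replicate of Hia5 1 of the 7 genes, 14.3%, has a peak.

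The dose of Hia5 was set against covered bases, the number of bases of a window under peaks, by Pearson's r with log10 dose over the 8 libraries. Exact two-sided permutation p-values were adjusted over the 3746 genes with a peak in at least 3 of the libraries, of which only roX1 and mle are on the list. In the roX1 window the 0.6 U library covered 200 bases, the 2 U replicates 340 and 280, the 6 U replicates 300 and 242, and the 20, 60 and 200 U libraries 94, 57 and 695. The relation did not pass (r = 0.321, exact permutation p = 0.454, adjusted p = 0.506; Spearman's rho = -0.0241, exact permutation p = 0.966). The 200 U library, with its added peaks in ec, decided the sign, since r was -0.693 without it (exact permutation, adjusted p = 0.11). It was -0.935 without 200 and 0.6 U (exact permutation p = 0.0111, unadjusted) and -0.432 without 200 and 60 U (exact permutation p = 0.389, unadjusted). With the library run as a block r was 0.294 (exact permutation, adjusted p = 0.675). Within run 1, with 5 Hia5 libraries, r for the window was 0.297 (exact permutation p = 0.667, unadjusted). Run 2 holds 3, too few for a test, and there r was 0.547. At the internal site alone, chosen after seeing the data, r over the 8 libraries was -0.731 (exact permutation p = 0.0437, unadjusted). With the library run as a block the site gave -0.727 (exact permutation p = 0.138, unadjusted).

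In the mle window Hia5 covered 271 bases at 0.6 U, 147 in 2 U replicate 2 and 620 at 200 U, and 0 in the other 5 libraries. Here too the test did not pass (r = 0.355, exact permutation p = 0.396, adjusted p = 0.448), and rho was -0.069 (exact permutation p = 0.884). Without 200 and 0.6 U r was -0.484 (exact permutation p = 0.5, unadjusted), and without 200 and 60 U -0.798 (exact permutation p = 0.133, unadjusted). With the library run as a block r was 0.482 (exact permutation, adjusted p = 0.436). The runs differed in sign, with r of 0.713 within run 1 (exact permutation p = 0.2, unadjusted) and -0.997 over the 3 libraries of run 2. The Hia5 lists themselves held 8080 peaks at 0.6 U, 5680 and 6161 at 2 U and 2856 and 2132 at 6 U. At 20, 60 and 200 U they held 2494, 772 and 4054. In lists cut to the 772 highest peaks r was -0.447 for roX1 (exact permutation, adjusted p = 0.339), and mle kept no treated peak. Apart from such cut lists, the part of list length in the dose relations was not tested. Over all genes tested the median r was -0.748, 308 (8.22%) fell with dose and 6 (0.16%) rose. That count depended on single libraries: it came to 0 in both directions without Hia5 2 U replicate 2 or 6 U replicate 1, and to 62 without 6 U replicate 2.

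EcoGII and Hia5 were compared at 0.6, 2 and 6 U, the doses they share, by the mean number of covered bases (exact two-sided permutation of 3 against 5 libraries, adjusted over 5729 genes with a peak in at least 3 of the 8). Libraries were permuted without regard to dose, and doses were not balanced: Hia5 had 2 libraries each at 2 U and 6 U, and EcoGII 1. No gene passed after adjustment (0.0% of the genes tested, with a smallest adjusted p of 0.388), and 487 genes had an unadjusted p below 0.05. The smallest p that 3 against 5 libraries can give is 0.0179. Adjustment over 5729 genes can be passed only if a large share of them reach that value, so the lack of calls says little. For mle EcoGII covered 310, 386 and 569 bases at 0.6, 2 and 6 U, and Hia5 271 at 0.6 U, 147 in 2 U replicate 2 and 0 in the other 3 libraries. All 3 EcoGII values lay above all 5 Hia5 values. The means were 422 ± 133 bases in EcoGII (SD, n = 3) and 83.6 ± 123 in Hia5 (SD, n = 5), a difference of 338 (exact permutation p = 0.0179, the smallest this test can give; adjusted p = 0.388). Without peaks that overlapped control peaks the difference was -16.6 (exact permutation, adjusted p = 1). Within run 2, which holds all 3 EcoGII libraries and 3 of the Hia5 ones, it was 282 bases for mle (exact permutation p = 0.1, the smallest that 3 against 3 allows).

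For roX1 EcoGII covered 335, 452 and 450 bases at the 3 doses, and Hia5 200, 340, 280, 300 and 242 over its 5 libraries. The groups overlapped, with means of 412 ± 67.0 in EcoGII (SD, n = 3) and 272 ± 53.7 in Hia5 (SD, n = 5), a difference of 140 bases (exact permutation p = 0.0357, adjusted p = 0.42). The EcoGII values at 2 and 6 U include peaks of 72 and 130 bp in ec, outside the span of roX1. At the internal site alone the means were 345 ± 31.2 bases in EcoGII (SD, n = 3) and 272 ± 53.7 in Hia5 (SD, n = 5), a difference of 72.6 (exact permutation p = 0.107, unadjusted). Within run 2 the whole-window difference for roX1 was 172 bases (exact permutation p = 0.1). Over both runs the difference was 79.0 bases for msl-3 (exact permutation, adjusted p = 0.815) and 18.9 for msl-2 (exact permutation, adjusted p = 1), and for msl-2 -15.0 within run 2 (exact permutation, adjusted p = 1). EcoGII lists held 6772 to 13395 peaks and the Hia5 lists 2132 to 8080, and over all genes tested the median difference was 110 bases. The part of list length in these differences was not tested, apart from a rerun in lists of equal length. In lists cut to the 772 highest peaks the roX1 difference was -232 bases (exact permutation, adjusted p = 0.752).

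Genes known to act with the complex or on it were examined as a list of 20. Of these, 19 had a peak in some treated library (51.6% of all genes) and 7 in at least 9 of 17 (14.6% of all genes), and their median window was 7479 bp. Trl, the gene of GAGA factor, had a peak in all 17 treated libraries (0.983% of all genes). JIL-1, the histone kinase enriched on the male X, and nsl1, of the NSL complex that shares MOF, had one in 15 each, and Rcd5, another NSL subunit gene, in 14. Nup153, a nucleoporin gene, and pzg, a zinc finger chromosomal protein gene, had one in 10 each, and Iswi, the remodelling ATPase gene, in 9. Clamp had peaks in 3 libraries, wds in 1 and the gene of HP1a in none. The untreated m6A-IP or the input had a peak at 2 of the 20, JIL-1 and Unr (5.13% of all genes).

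Dose was tested for 9 of the 20. Covered bases fell with Hia5 dose at nsl1 (r = -0.928, exact permutation p = 0.00159, adjusted p = 0.0413) and JIL-1 (r = -0.895, exact permutation p = 0.00308, adjusted p = 0.0457). At the other 7, among them Trl (r = -0.857, exact permutation, adjusted p = 0.0592), the test of r did not pass. These 2 of 9 stand beside 8.22% of all genes tested that fell. By Spearman's rho, adjusted in the same way, Iswi alone of the 9 did not pass (rho = -0.663, exact permutation, adjusted p = 0.105). Trl gave rho = -0.988 (exact permutation, adjusted p = 0.00695), and nsl1 and JIL-1 -0.909 each (exact permutation, adjusted p = 0.0176). The hemocyte markers tested all passed by rho as well. The share of all genes that did was not counted, and no alternative was run with rho at these genes. The median r of the 9 was -0.847 and that of all genes tested -0.748, and a negative r was general among the genes tested. List length differed between the doses as well. In lists cut to the 772 highest peaks r was -0.634 for JIL-1 (exact permutation, adjusted p = 0.156), and nsl1 was not among the genes tested. Without 200 and 0.6 U r was -0.869 for nsl1 (exact permutation p = 0.0278, unadjusted) and -0.879 for JIL-1 (exact permutation p = 0.0333, unadjusted). Neither passed without Hia5 2 U replicate 2 (exact permutation, adjusted p = 0.0539 for nsl1 and 0.0521 for JIL-1) or without either 6 U replicate (0.0675 for both genes without replicate 1, and 0.0558 for nsl1 and 0.0574 for JIL-1 without replicate 2). With the library run as a block the adjusted p was 0.0749 for both (exact permutation).

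Genes with the pattern of presence most like each listed gene over the 17 treated libraries were found by the Jaccard index, with ties settled by total covered bases. For roX1, 174 genes shared its presence in all 17, and the nearest in covered bases (5092 for roX1) were the ribosomal RNA pseudogene 5.8SrRNA-Psi:CR45854 with 5080, CG13579 with 5070 and Mur89F with 5052. For roX2, 31 genes had the same 3 libraries, led by Pyroxd1, CG7376 and fmt. For msl-2 there were 24, led by mRpL30, CG1648 and Cul2, and for msl-3 40, led by CG14414, His3.3B and CG6951. For mle the nearest were unc-13 with an index of 0.9, and DZIP1 and Pp1alpha-96A with 0.889 each. With so few libraries the ties are many, and the index says no more than that peaks were present in the same lists.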

How the data were processed

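Each library came with its own peak list, thresholded at an FDR of 5% per the file names, in which the authors deposited a peak's start, end and height, a signal in units they do not state. BWA 0.7.12, SAMtools 1.2 and dm6 are listed in the submitters' processing notes, and the peak caller was not given in the sources used here. No lists were identical.

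Starts were turned to count from 1. Heights were the authors' and served only to rank peaks within a list. Gene spans, without strand, came from RefSeq release 6, for 17807 genes on 7 chromosomes; Mtor on the list of related genes was read as Mgtor. Overlap of 1 bp counted. Tests were exact two-sided permutations with Benjamini-Hochberg adjustment over all genes tested, at 0.05, in Python 3.11.15 with numpy 2.4.6 and tested on simulated data. Depth was only read from height steps, relative to other libraries, so values carry no counting interval. Named were all 7 genes, related genes with a peak in at least 9 treated libraries, and the 3 most alike genes; Clamp, wds, Unr and the gene of HP1a were chosen after their values were seen. Members and lists were chosen with earlier results of these data known. Library numbers fall into 2 runs (7 and 12 libraries, 5 and 3 with Hia5), an inference from the labels. Alternatives covered windows, thresholds, list length, control peaks, replicates and blocks.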

Additional observations from a re-analysis of the deposited data

Results flagged for a closer look

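At roX1 the change in covered bases at 6 U relative to 0.6 U ran in opposite directions between enzymes. It was 100 and 42 bases with Hia5 (the 2 replicates at 6 U against the library at 0.6 U) and 115 with EcoGII, and -321 with Btr192IV, whose list held 1425 peaks at 6 U and 3692 at 0.6 U. The EcoGII value includes a peak of 130 bp in ec at 6 U, outside roX1. At the internal site EcoGII peaks were 320 bp wide at 6 U, against 335 bp at 0.6 U, and Btr192IV peaks 54 bp at 6 U, against 300 bp at 0.6 U, both narrower at 6 U.

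At mle the change was 259 bases with EcoGII, -271 for each Hia5 replicate at 6 U and -56 with Btr192IV. The untreated m6A-IP covered 433 bases of that window. These differences between enzymes were not tested, since most doses hold 1 library.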

How the results depend on the processing

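The 38 pairs of gene and treated library with a peak came to 33 to 41 with windows of 0.5 or 2 kb, with most of the peak required inside the window or without control-overlapping peaks, but to 22 among peaks above the median height of each list and 10 in lists of the 772 highest peaks, all 10 at roX1. At Hia5 2 U and 6 U together 4 of the 7 genes had a peak (32.0% of all genes), 2 to 4 when leaving out 1 replicate (2 without 2 U replicate 2) and 1 in equal lists. The 314 genes related to Hia5 dose came to 188 in equal lists (699 genes tested), 0 with peaks required in only 1 library (2432 genes at unadjusted p below 0.05, exact permutation), 0 with numbers of peaks (2138), 0 to 487 without 1 replicate and 676 without 200 U, an alternative added after seeing the data. With the replicate block over the 7 numbered libraries it was 0 (582 at unadjusted p below 0.05), and with the library run as a block 0 (1317). Same-numbered libraries at 2 U and 6 U did not deviate together (r = 0.0145 over 5698 genes), so the numbers were not taken to pair them, although same-numbered libraries also lie in the same inferred run; with the replicate block r was 0.279 for roX1 (adjusted p = 0.753, exact permutation). The calls at nsl1 and JIL-1 were also lost with peaks required in only 1 library and with numbers of peaks. In equal lists that at JIL-1 was lost (adjusted p = 0.156, exact permutation), and nsl1 was not among the 699 genes tested. Directions of results that did not pass turned as follows. For roX1 the dose relation was -0.0947 with 0.5 kb windows, -0.447 in equal lists and -0.693 without 200 U, and with its internal site alone, chosen after seeing the data, -0.731 (exact permutation p = 0.0437, unadjusted; rho = -0.627, p = 0.106; r = -0.727, p = 0.138 with the library run as a block). For mle it was -0.00405 without control-overlapping peaks. EcoGII minus Hia5 was -232 bases for roX1 in equal lists -16.6 for mle without control-overlapping peaks and -15.0 for msl-2 in run 2 alone, an alternative added after seeing the data, as was the internal roX1 site in that comparison. The comparison of EcoGII with Hia5 gave 0 adjusted calls in every alternative run. In run 2 alone 0 genes had an unadjusted p below 0.05, where none is possible, and in the others 14 to 592. With so few libraries adjustment could hardly be passed in any of them, so the repeated lack of calls says little. No cause was tested for these changes.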
